A study of Mus musculus with 12 samples.

Results

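The plasminogen activation system was described across the 4 groups of the series through 7 listed genes, Plaur, Plau, Plat, Plg, Serpine2, Serpinf2 and Thbd. A gene was taken as measured where the array annotation gave a probe set that symbol and no other. This held for 6 of the 7 genes, each with 1 probe set, among 19938 genes measured in all. Serpine2 had no such probe set and is not analysed here. Renal cortex of mice was hybridised to 12 Affymetrix gene arrays, 3 in each group. Control mice had the genotype nr3c1 flox/flox. GR-deficient mice had the genotype Pax8-Cre;nr3c1 flox/flox, in which a recombinase driven in renal tubular epithelium removes the floxed part of the glucocorticoid receptor (GR) gene. The floxed alleles were common to all 4 groups, and Pax8-Cre was present in the GR-deficient groups alone, so an effect of the recombinase and one of the lost receptor cannot be told apart. Mice with acute kidney injury (AKI) had received glycerol into a muscle 24 hours earlier, an injection that releases myoglobin into the circulation. Healthy mice were an uninjected second cohort, so cohort and injury cannot be told apart. Strain, age and sex were not given in the sources used here. The 3 replicates of a group are numbered in the labels, which do not say whether they were separate mice. The p-values therefore reflect the spread among these arrays alone, and that spread may be technical.

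Plasmin is the protease that dissolves fibrin clots and cleaves matrix proteins. It is cut from its precursor plasminogen (Plg) by tissue-type activator (Plat) or by urokinase (Plau), which works at cell surfaces when held by the urokinase receptor (Plaur). Antiplasmin (Serpinf2) and protease nexin (Serpine2) are serpins that block plasmin and its activators, and thrombomodulin (Thbd) turns thrombin from a clotting enzyme into an activator of protein C and of a carboxypeptidase that slows clot lysis. In the kidney, urokinase is made by tubular epithelium and shed into urine, thrombomodulin is best known from endothelium, and circulating plasminogen comes mainly from the liver.

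Values are log2 expression values, so a difference of 1 is a doubling. Levels of different genes were not compared, because each probe set has its own brightness. Array medians over all genes lay between 7.001 and 7.092. Nr3c1, the targeted gene, was lower on all 6 GR-deficient arrays than on the lowest of the 6 control arrays, with group means of 9.55 (healthy control), 8.86 (control with AKI), 8.17 (healthy GR-deficient) and 7.98 (GR-deficient with AKI). The arrays carried the markers of renal cortex: the mean of 10 proximal tubule markers lay between 12.78 and 12.86 in healthy control mice. Control AKI replicate 1 had the narrowest spread of values over genes (SD 1.88, against 1.96 to 2.06 on the other arrays). Some results that use it, or healthy GR-deficient replicate 1, are given below with and without that array. The calls of the 6 genes were also checked with each array left out in turn.

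Of the 6 measured genes, 3 rose and 1 fell after AKI in control mice. Plaur rose most, by 3.53 on the log2 scale, followed by Thbd (1.83) and Plat (1.29), while Serpinf2 fell by 0.84. Plau and Plg did not pass the test. In GR-deficient mice with the same injury, Plaur alone passed, with a rise of 1.30, and between healthy mice of the 2 genotypes 0 of the 6 passed. The calls are from limma at an adjusted p of 0.05 over all 19938 genes. With AKI in control mice 28.7% of all genes passed (13.6% higher, 15.1% lower), beside 4 of the 6 genes. The AKI comparison in GR-deficient animals called 4.64% (3.29% higher, 1.35% lower), beside 1 of 6. Between genotypes, 0.145% of genes passed in the healthy state (0.0351% higher and 0.11% lower in GR-deficient mice), beside 0 of 6, of which Plat had an unadjusted p of 0.0383. Between genotypes within AKI, 17.4% passed (7.34% lower), beside 3 of 6, all lower. The AKI response itself differed between genotypes, as the interaction term of the fit, for 11.5% of genes (7.39% higher, 4.06% lower), beside 3 of 6, all lower. These comparisons share arrays.

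The arrays of a pair of groups can also be set side by side without a model. AKI and healthy arrays of control mice did not overlap for 39.6% of all genes (19.3% higher, 20.4% lower) and for 4 of the 6 genes (3 higher, 1 lower). The same held in GR-deficient animals for 25.3% (12.8% higher, 12.5% lower) and for 2 of 6, both higher. The genotypes were apart for 18.6% of genes when healthy (8.08% higher, 10.6% lower in GR-deficient mice) and for 1 of 6, and for 32.8% in AKI (17.5% higher, 15.3% lower) and for 3 of 6, all lower.

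**Figure D1:**
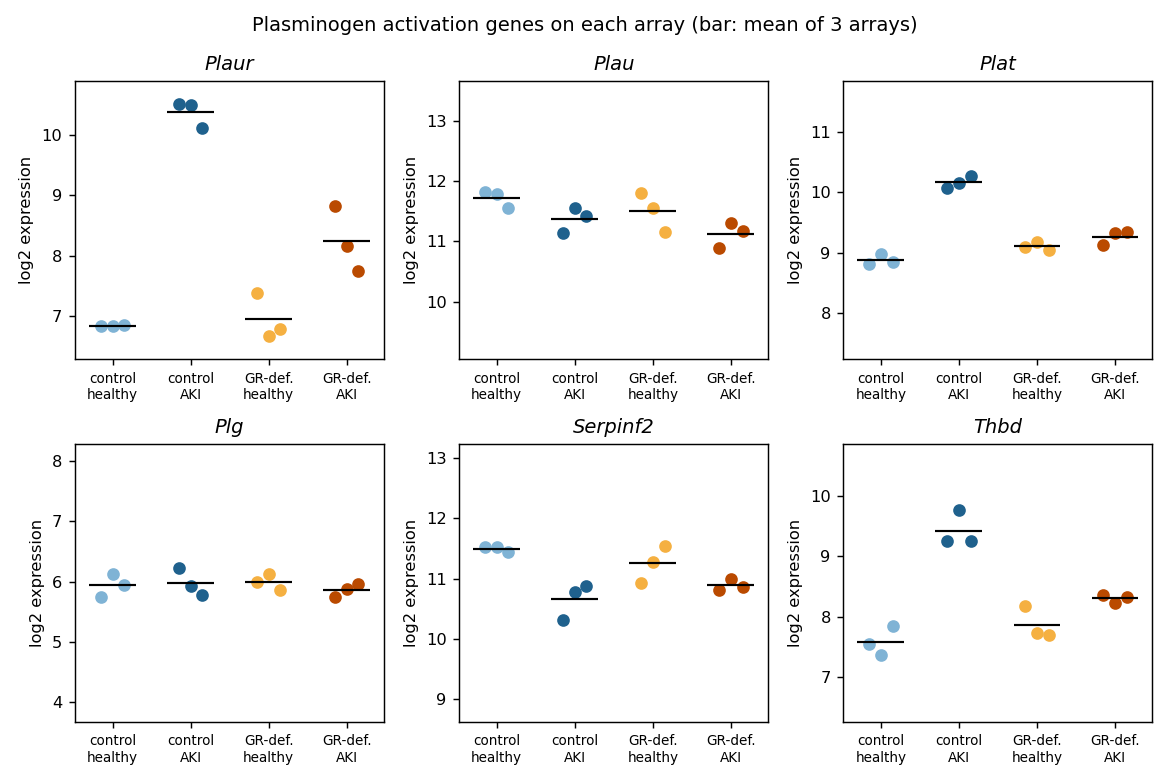
Each panel plots the log2 expression of 1 gene (vertical axis, the same span of values in each panel) on the 3 arrays of each group (points), with the group mean as a bar. Plaur, Plat and Thbd on the control AKI arrays lie above all their other arrays, whereas the Plg arrays of the 4 groups overlap.

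Plaur encodes the membrane-anchored urokinase receptor, which concentrates urokinase on epithelial cells and leukocytes. Its log2 values were 6.83, 6.84 and 6.85 on the healthy control arrays, 10.51, 10.50 and 10.11 on the control AKI arrays, 7.38, 6.67 and 6.79 on the healthy GR-deficient arrays and 8.83, 8.16 and 7.74 on the GR-deficient AKI arrays. The 3 control AKI arrays stood above all others, the GR-deficient AKI arrays came next without overlap, and the healthy arrays of both genotypes overlapped at the bottom. The rise with AKI was 11.6-fold in control mice (3.53 ± 0.232, SE, n = 3 per group, adjusted p = 7.56e-08, limma) and 2.45-fold in GR-deficient mice (1.30 ± 0.232, adjusted p = 0.00603). The difference between these responses was -2.24 ± 0.329 (limma, adjusted p = 0.000637). The mean response was thus smaller on the GR-deficient arrays, judged against a standard error that comes from the spread among these arrays. Within AKI, GR-deficient mice held 4.37-fold less Plaur than control mice (-2.13 ± 0.232, adjusted p = 2.46e-05). In healthy mice the genotypes differed by 0.11 (95% interval -0.39 to 0.61).

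Healthy GR-deficient replicate 1 held the most Plaur of its group. Without that array the rise in GR-deficient mice was 1.51 (adjusted p = 0.00539) and the difference in response -2.02 (adjusted p = 0.00218). The genotype difference in healthy mice then changed sign, to -0.11 (adjusted p = 1.0). Over the 12 fits that each left out 1 array, the rise in GR-deficient mice ranged from 1.00 to 1.55 and passed in all 12, with 0.0359 as the highest adjusted p.

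The region before a Plaur start site is shown because Plaur had the largest response of the 6 genes, beside that of Serpinf2, the member that fell. RefSeq promoter sequences (GRCm38.p6) were found for 3 of the 7 genes. The 250 bases before the start used in that table are printed 5′ to 3′ on the gene's strand, with matches to the motifs TGANTCA (AP-1) and GGGCGG (GC box) in capitals. The Plaur stretch is chr7:24462233-24462482 on the plus strand and the Serpinf2 stretch chr11:75439502-75439751 on the minus strand. The annotated Plaur gene begins at 24460937, so its stretch lies inside the gene span, before a start further downstream.
Plaur: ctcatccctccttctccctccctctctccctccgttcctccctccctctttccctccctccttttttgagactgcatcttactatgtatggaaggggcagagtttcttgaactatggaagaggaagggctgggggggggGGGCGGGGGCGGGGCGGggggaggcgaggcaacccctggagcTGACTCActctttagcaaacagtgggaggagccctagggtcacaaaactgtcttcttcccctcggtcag
Serpinf2: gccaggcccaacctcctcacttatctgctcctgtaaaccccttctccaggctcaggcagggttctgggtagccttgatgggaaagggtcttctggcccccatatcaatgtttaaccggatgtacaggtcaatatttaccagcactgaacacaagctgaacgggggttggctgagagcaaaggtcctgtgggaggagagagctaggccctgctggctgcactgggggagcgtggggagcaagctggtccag
The Plaur stretch held 1 AP-1 match, 69 to 63 bases before the start, a motif present in 6.75% of 32851 mouse promoter stretches of the same length searched on both strands. It also held 3 GC box matches between 111 and 95 bases before the start, of which the second and the third share a base. A GC box was present in 32.7% of promoters. The motifs AGAACA (a GR half-site, 16.1% of promoters), TTCNNNGAA (STAT, 7.02%) and TGACGTCA (CRE, 1.55%) had no match in either stretch, and Serpinf2 matched none of the 5 motifs. A match is a description of letters and was not tested as a binding site.

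By root mean square difference between gene-centred profiles over the 12 arrays, the genes most like Plaur were Fosl1 (0.190 on the log2 scale), a subunit of the AP-1 transcription factor, Srxn1 (0.210), the antioxidant enzyme sulfiredoxin, and Arg2 (0.252), the mitochondrial arginase. Fosl1 differed by 3.89 with AKI in control mice and by 1.48 in GR-deficient mice. The 12 arrays share the same 4 groups, so any gene with a like pattern of group means comes out close, and no test was made. With each gene scaled to unit SD, Fosl1 ranked second behind Pak1ip1, and Srxn1 and Arg2 ranked 16 and 33.

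**Figure D2:**
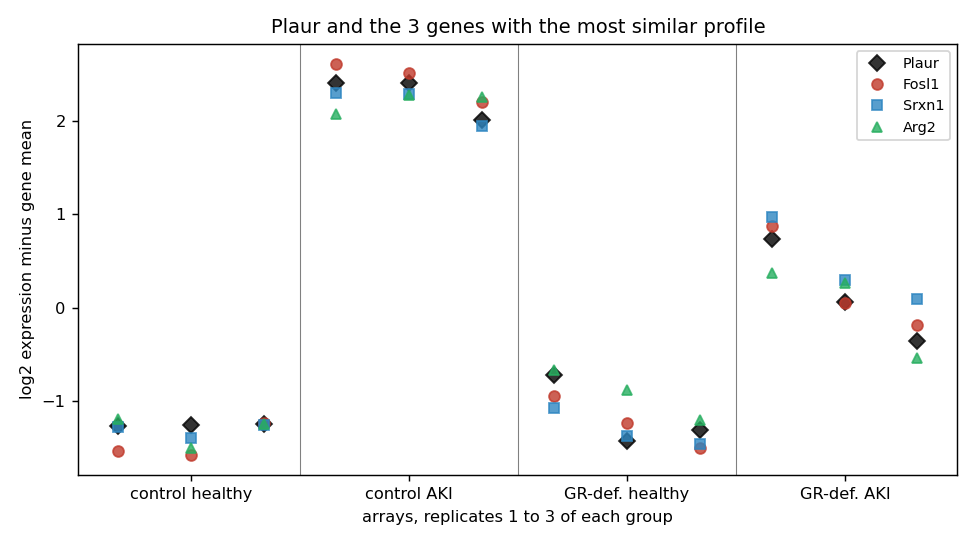
The plot gives log2 expression minus each gene's mean over 12 arrays (vertical axis) for Plaur and the 3 genes with the smallest root mean square difference from it, array by array in the 4 groups (horizontal axis). All 4 genes are highest on the 3 control AKI arrays, and the GR-deficient AKI arrays lie between those and the healthy arrays.

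The RNAs of the 2 activators are given next. Plat, the tissue-type activator, read 8.81, 8.97 and 8.85 on the healthy control arrays, 10.07, 10.16 and 10.27 on the control AKI arrays, 9.09, 9.18 and 9.05 on the healthy GR-deficient arrays and 9.13, 9.33 and 9.34 on the GR-deficient AKI arrays. The 3 control AKI arrays stood alone at the top, and the GR-deficient arrays overlapped between healthy and AKI. Plat rose 2.45-fold with AKI in control mice (1.29 ± 0.102, adjusted p = 3.25e-07). In GR-deficient mice the difference was 0.16 with a 95% interval of -0.06 to 0.37 (adjusted p = 0.461). The responses differed by -1.13 ± 0.144 (adjusted p = 0.000251), and within AKI the GR-deficient level was 1.87-fold lower (-0.90 ± 0.102, adjusted p = 3.32e-05). In healthy mice every GR-deficient array lay above every control array, by 0.23 on average, and the difference did not pass (adjusted p = 0.44).

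Plau, urokinase itself, read 11.82, 11.78 and 11.55 on the healthy control arrays, 11.14, 11.56 and 11.42 on the control AKI arrays, 11.81, 11.55 and 11.16 on the healthy GR-deficient arrays and 10.89, 11.30 and 11.17 on the GR-deficient AKI arrays. Each group overlapped its neighbour in the order of means. The difference with AKI was -0.34 in control mice (95% interval -0.70 to 0.01, adjusted p = 0.154) and -0.39 in GR-deficient mice (-0.74 to -0.03, adjusted p = 0.229). The difference in control mice was -0.05 after quantile normalization, -0.12 under a cyclic loess scaling and -0.17 when arrays were weighted by quality, so its size depends on these settings. The upper bounds of both intervals lie far below the rise of its receptor in the same mice. The intervals of the genotype differences were -0.57 to 0.15 in healthy mice and -0.61 to 0.10 in AKI.

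Plg, the precursor, was dim on these arrays, with a mean below the median of all genes, and the deposited values carry no detection call. Its values ranged from 5.74 to 6.22 over the 12 arrays and the 4 groups overlapped. Differences lay between -0.14 and 0.05 in the 4 comparisons of 2 groups, with adjusted p from 0.639 to 0.948 and intervals no wider than -0.42 to 0.34. The direction of the AKI difference in control mice (0.03) turned to -0.03 with array quality weights and to -0.10 without control AKI replicate 1.

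**Figure D3:**
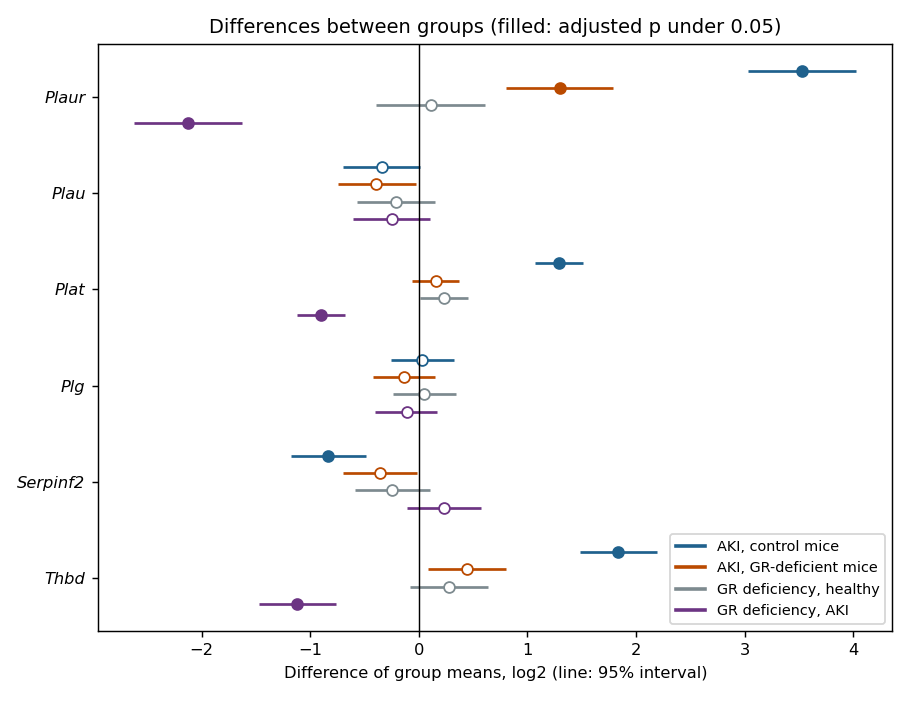
Points are differences of group means on the log2 scale (horizontal axis) for the 6 genes in the 4 comparisons of 2 groups, with 95% intervals from limma as lines and filled points where the adjusted p was under 0.05. Plaur, Plat and Thbd lie to the right for AKI in control mice and to the left for GR deficiency in AKI, and Serpinf2 lies to the left for AKI in control mice.

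Serpinf2, the plasmin inhibitor, went the opposite way to the receptor. It read 11.52, 11.52 and 11.44 on the healthy control arrays, 10.32, 10.78 and 10.87 on the control AKI arrays, 10.93, 11.27 and 11.54 on the healthy GR-deficient arrays and 10.81, 10.99 and 10.86 on the GR-deficient AKI arrays. The control AKI arrays lay below all healthy control arrays, and healthy GR-deficient mice spanned the range between them. Serpinf2 fell 1.78-fold with AKI in control mice (-0.84 ± 0.16, adjusted p = 0.000918), and by 0.66 without control AKI replicate 1 (adjusted p = 0.00294). The difference was -0.58 after quantile normalization and -0.64 under cyclic loess (limma, adjusted p = 0.00427 and 0.00109). The fall passed in both, and its size depends on the scaling. In GR-deficient mice the difference was -0.36 (95% interval -0.70 to -0.02, adjusted p = 0.246), and -0.52 without healthy replicate 1, the lowest Serpinf2 array of its group (adjusted p = 0.0997). The responses differed by 0.48 with an interval of -0.01 to 0.96 (adjusted p = 0.218), so a smaller decrease in GR-deficient mice was not shown. By the same measure as for Plaur, the genes most like Serpinf2 were Cmtm6 (0.075), a membrane protein, Tns1 (0.093), the focal adhesion protein tensin, and Ghr (0.094), the growth hormone receptor. On the unit SD scale they ranked 2, 10 and 6, behind Patj.

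Thbd, thrombomodulin, read 7.54, 7.36 and 7.85 on the healthy control arrays, 9.25, 9.76 and 9.25 on the control AKI arrays, 8.17, 7.73 and 7.69 on the healthy GR-deficient arrays and 8.35, 8.23 and 8.33 on the GR-deficient AKI arrays. The AKI arrays of each genotype lay above its healthy arrays, and the control AKI arrays lay highest. AKI raised Thbd 3.57-fold in control mice (1.83 ± 0.167, adjusted p = 1.16e-06). In GR-deficient mice it was higher by 0.44 on average and did not pass (95% interval 0.08 to 0.80, adjusted p = 0.167), although the arrays did not overlap. Without healthy GR-deficient replicate 1, the highest of its group, the difference was 0.60 (adjusted p = 0.0797). The responses differed by -1.39 ± 0.236 (adjusted p = 0.00161), and within AKI GR-deficient mice held 2.17-fold less (-1.12 ± 0.167, adjusted p = 0.000309). The genes most like Thbd were Cxcr2 (0.160), a chemokine receptor of neutrophils that is also on the neutrophil marker list below, Plec (0.181), the cytoskeletal linker plectin, and Kctd1 (0.197). With each gene scaled to unit SD, Cxcr2, Plec and Kctd1 ranked 7, 3 and 51, and Spire2 came first. Those most like Plat were Nr2c2ap (0.096), Spsb1 (0.131) and Adgrf1 (0.138), which ranked 1, 12 and 19 on the unit SD scale.

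The wider pathway was read from 4 lists of other genes, of which 41 of 46 were measured. With AKI in control mice, 18 rose and 7 fell (median difference 0.16, against 0.00 over all genes), beside 13.6% and 15.1% of all genes. In GR-deficient mice 5 rose and 1 fell, beside 3.29% and 1.35% of all genes (median 0.08, against -0.03 over all genes). Between healthy genotypes 0 passed, near the 0.145% of all genes, and 9 had an unadjusted p under 0.05. In AKI 5 were higher and 14 lower in GR-deficient mice (median -0.19, against -0.04 over all genes). Over all genes 17.4% passed in that comparison (7.34% lower). These comparisons share arrays, and no list was tested as a set. The count of 6 in GR-deficient mice was 3 without GR-deficient AKI replicate 1, without AKI replicate 2 or without healthy replicate 2, and 10 without control AKI replicate 1.

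Among 13 receptors and binding partners, 7 rose and 3 fell with AKI in control mice, beside 13.6% and 15.1% of all genes. Annexin A2 (Anxa2, 2.46 ± 0.167) and its partner S100a10 (2.13 ± 0.141), which together hold plasminogen and tissue-type activator on cell surfaces, rose, and both also rose in GR-deficient mice (0.83 and 0.92, adjusted p = 0.0117 and 0.00219). Their responses were smaller there, with interactions of -1.63 for Anxa2 (adjusted p = 0.000572) and -1.21 for S100a10 (adjusted p = 0.00134). Of the endocytic receptors that clear activator and inhibitor complexes, Lrp2 (megalin, also a proximal tubule marker) fell by 1.39 and Vldlr fell by 0.97 (adjusted p = 1.04e-06 and 3.88e-06), whereas Lrp1 rose by 0.68 (adjusted p = 0.000685). In GR-deficient mice Lrp2 and Vldlr differed by -0.02 and 0.02 with AKI, and both interactions passed (1.36, adjusted p = 0.000273, and 0.99, adjusted p = 0.000525). Lrp1 differed by -0.01 there, with an interaction of -0.68 (adjusted p = 0.0208).

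Of 6 inhibitors of clot lysis, 0 rose and 1 fell with AKI in control mice, a count near the 15.1% of all genes that fell. The 1 that fell was Hrg, a plasma glycoprotein that binds plasminogen. Hrg fell by 1.43 (adjusted p = 8.4e-05) and differed by -0.30 in GR-deficient mice (interaction 1.13, adjusted p = 0.021). Hrg was also lower on the healthy GR-deficient than on the healthy control arrays (-0.78, adjusted p = 0.184), and after AKI the genotypes differed by 0.34 (adjusted p = 0.311). Serping1, the C1 inhibitor, was higher in GR-deficient than in control mice with AKI (0.52, adjusted p = 0.0351). Of 9 substrates and activators, 7 rose and 0 fell with AKI in control mice, beside 13.6% and 15.1% of all genes. Among the 7 were the 3 fibrinogen chains (Fga, Fgb and Fgg, by 4.42 to 6.43), the substrate of plasmin once clotted. Mmp14 (0.50), a membrane metalloprotease, was also among them. In GR-deficient mice Fgb rose (2.05, adjusted p = 0.00807) and Mmp2 fell. Fga (1.12) and Fgg (1.24) were higher there on average and did not pass (limma, adjusted p = 0.0608 and 0.226). The interactions of all 3 chains passed (-4.92 to -3.30). In healthy mice the 3 chains were higher by 0.64 to 1.39 in GR-deficient than in control mice, and did not pass.

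Of 13 genes of thrombin and protein C, 4 rose and 3 fell with AKI in control mice, beside 13.6% and 15.1% of all genes. The median difference of this list was -0.05, against 0.00 over all genes. Procr (2.60 ± 0.248), the endothelial protein C receptor, rose together with Thbd, with which it presents protein C to thrombin. Tissue factor (F3, 1.74 ± 0.162), the starter of clotting, the thrombin receptor F2r (1.31 ± 0.145) and protein S (Pros1, 1.14 ± 0.132) rose as well. The 3 that fell were clotting factor V (F5, -1.47), Tfpi2 (-0.50) and protein C itself (Proc, -0.66). In GR-deficient mice Procr (1.08, adjusted p = 0.0234) and F2r (0.79, adjusted p = 0.00652) rose. The response was smaller in GR-deficient mice for Procr (-1.52, adjusted p = 0.0113), F3 (-1.21, adjusted p = 0.0033) and Pros1 (-0.74, adjusted p = 0.0182), while F2r did not pass (-0.52, adjusted p = 0.127).

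**Figure D4:**
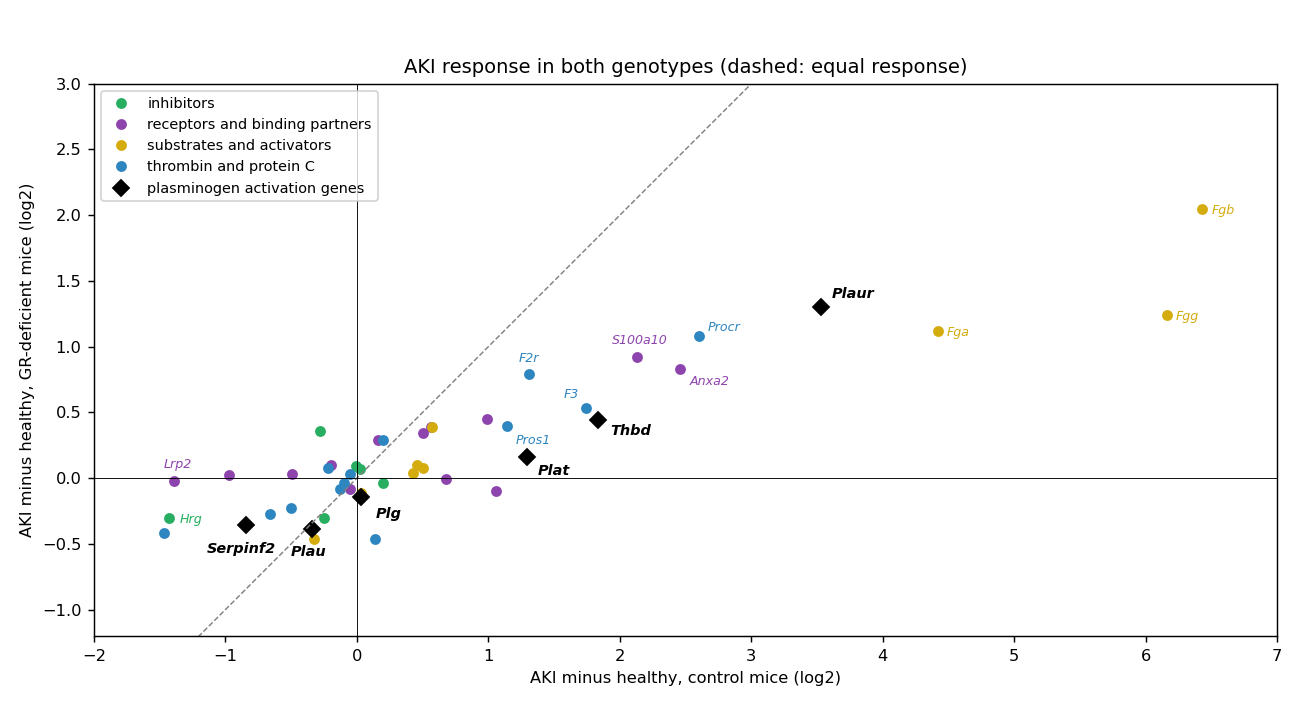
Each point is a gene, with its AKI difference in control mice on the horizontal axis and in GR-deficient mice on the vertical axis (both log2), black diamonds for the 6 plasminogen activation genes and colours for the 4 lists. Plaur, Plat and Thbd and the fibrinogen chains lie below the dashed line of equal response.

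Cells other than tubule also make several of these proteins, and in bulk cortex fewer cells of a type and less RNA per cell cannot be told apart. Of 9 neutrophil markers, 6 rose with AKI in control mice. In GR-deficient mice 0 rose (3 at an unadjusted p under 0.05), a count near the 3.29% of all genes. For 2 of the 9, S100a8 and S100a9 (both 0.55), AKI arrays lay above healthy arrays there, beside 12.8% of all genes. The mean of the list ran from 6.03 to 6.29 on control AKI arrays, 5.24 to 5.52 on GR-deficient AKI arrays and 5.04 to 5.30 on all healthy arrays. For 7 monocyte and macrophage markers, 2 rose (Cd68 and Cd14) and 1 fell (Csf1r) in control mice, and the same 2 rose in GR-deficient mice. Their mean was 7.85 to 8.15 on control AKI arrays, 7.24 to 7.72 on GR-deficient AKI arrays and 7.09 to 7.32 on healthy arrays. That mean was carried by Cd14 (3.92) and Cd68 (2.85), while the median difference of the list with AKI in control mice was -0.18. The mean of the neutrophil list, Cd14 and Cd68 moved with Plaur and Thbd, whereas Csf1r went the opposite way. The part of these markers in the Plaur and Thbd results was not tested. Of 10 endothelial markers, 5 rose (Pecam1, Cdh5, Flt1, Egfl7 and Nos3) and 3 fell (Kdr, Tek and Ehd3) in control mice. In AKI 4 were lower (Cdh5, Flt1, Egfl7 and Nos3) and 3 higher (Kdr, Tek and Ehd3) in GR-deficient mice. The 4 went the way of Plat and Thbd, and the 3 went the opposite way. Their interactions passed except for Flt1 (limma, adjusted p = 0.135). The part of these markers in the Plat and Thbd results was not tested. The mean of all 10 overlapped between healthy (9.17 to 9.25) and AKI arrays (9.07 to 9.31) of control mice, with members going both ways, and was 9.16 to 9.20 on GR-deficient AKI arrays. On healthy GR-deficient arrays (8.99 to 9.15) it lay below the healthy control and the GR-deficient AKI arrays. All 10 proximal tubule markers fell with AKI in control mice and 2 in GR-deficient mice, with means of 11.02 to 11.36 and 12.28 to 12.43 after AKI. Of 10 distal nephron markers 7 fell in control mice and 3 in GR-deficient mice. Serpinf2 fell with both lists with AKI in control mice. Between genotypes in AKI, 9 proximal markers were higher, and 7 distal markers were higher and 1 lower, in GR-deficient mice. There Serpinf2 differed by 0.23 (limma, adjusted p = 0.392) and did not pass. The part of these lists in the Serpinf2 results was not tested. Of 4 platelet and 5 skeletal muscle markers, 0 passed in limma with AKI in control mice, and 0 had an unadjusted p under 0.05. Of 7 mesangial, fibroblast and mural markers 4 rose and 2 fell in control mice, with means of 8.47 to 8.67 on healthy and 8.71 to 8.94 on AKI arrays, and in GR-deficient mice 2 rose and 0 fell. Of 5 podocyte markers 1 rose and 2 fell in control mice, with overlapping means. Of 7 hepatocyte markers Apoa1 alone was called with AKI in control mice.

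**Figure D5:**
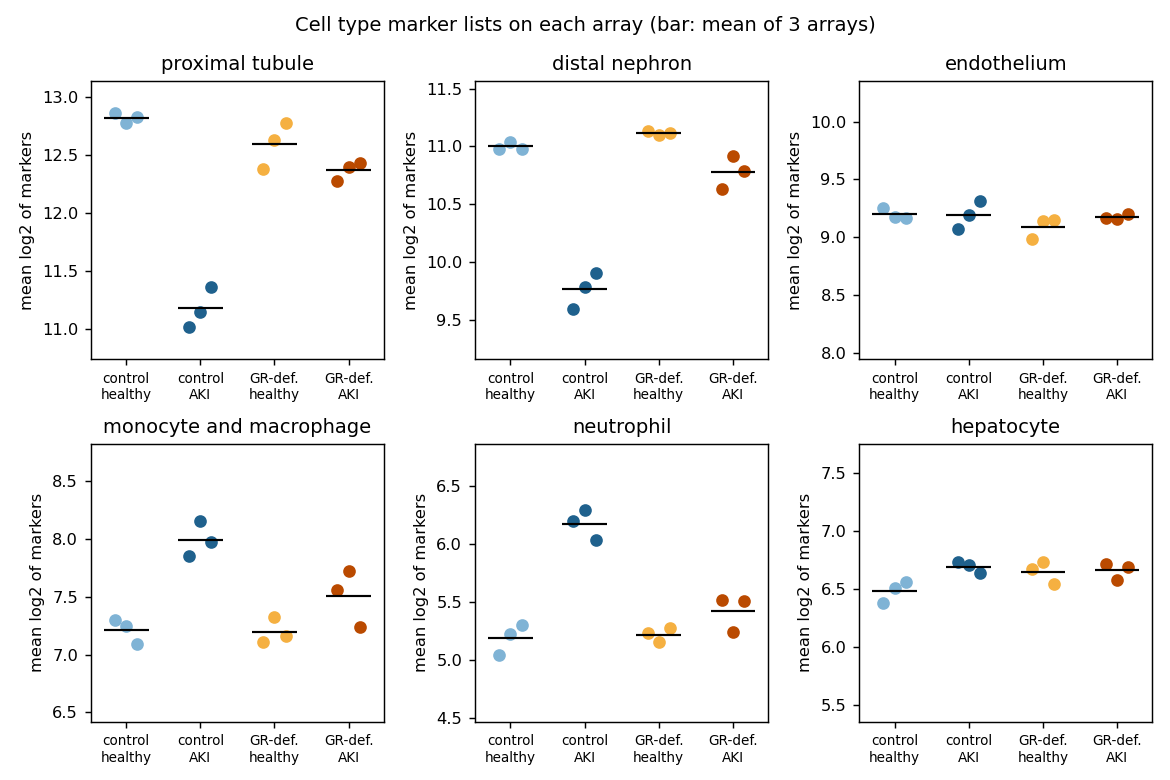
Each panel gives the mean log2 expression of the measured markers of 1 cell type (vertical axis, the same span in each panel) on every array, with the mean of 3 arrays as a bar. Neutrophil and monocyte lists are highest and both tubule lists lowest on the control AKI arrays, and the endothelial means of healthy and AKI control arrays overlap.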

How the data were processed

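The deposited table holds log2 values that the authors made from Affymetrix arrays, 1 value per probe set and array. The submitters' processing notes name RMA, affy and oligo, without versions. The log base was read from the values, whose highest per array lay between 14.73 and 14.90. Nothing further was normalized.

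Of 35556 probe sets, 21789 had exactly 1 symbol in the annotation table, 1621 had several and 12146 none. The probe set with the highest mean was kept per gene, leaving 19938 genes. Group means of all 12 arrays were fitted with limma 3.58.1 (R 4.3.3, lmFit and eBayes, 8 residual degrees of freedom). Two-sided p-values were adjusted by Benjamini-Hochberg over all genes within each of 5 contrasts. The code of the fit was also run on simulated data with independent noise and few shifted genes. Real arrays can depart from that setting, so nothing is drawn from this run. At most 0.025% of gene values were exactly equal, at all digits deposited, between any 2 arrays.

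The members, gene lists and tests were chosen with earlier results of these data known. Named genes are the 7 members, Nr3c1, the 3 closest profiles of each member that passed, and up to 4 passing genes per pathway list with the smallest adjusted p. F5, Tfpi2, Proc, Lrp1, Mmp2 and the named cell markers lie outside this rule and were named after their values were seen, to spell out a count. Alternatives were other scalings, filters, probe set choices, weights and priors, a replicate block, and leaving out each array.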

Additional observations from a re-analysis of the deposited data

Results flagged for a closer look

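The AKI response differed between genotypes, by the interaction term of the same fit, for 3 of the 6 genes, all lower. Over all genes the share was 11.5% (4.06% lower). The response of GR-deficient mice minus that of control mice was -2.24 for Plaur, -1.39 for Thbd and -1.13 for Plat on the log2 scale. In each of the 3, the 3 GR-deficient AKI arrays lay below the 3 control AKI arrays, as they did for 15.3% of all genes. The same arrays gave the interaction calls. No test for an outlying array within a group was run on groups of 3.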

How the results depend on the processing

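Of 649 values recomputed for the 6 genes in 5 contrasts, 634 kept their direction and their side of the threshold, 3 newly passed and 12 changed sign, none of them a value that had passed. No gene among the 6 lost a call when any 1 of the 12 arrays was left out: the number passing stayed at 4, 1, 0, 3 and 3. With array quality weights 3 passed with AKI in GR-deficient mice, Serpinf2 (-0.41, adjusted p = 0.0163) and Thbd (0.54, adjusted p = 0.0193) joining Plaur, and Plau passed between genotypes in AKI (-0.44, adjusted p = 0.00943). The weights turned the sign of Plg with AKI in control mice (-0.03) and of Plaur between healthy genotypes (-0.08). Leaving out 1 array gave ranges that cross 0 for Plg with AKI in control mice (-0.10 to 0.13), Plaur between healthy genotypes (-0.11 to 0.25), Plg between healthy genotypes (-0.05 to 0.14), Plg between genotypes in AKI (-0.22 to 0.01) and the Plau interaction (-0.21 to 0.11).

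Over all genes, 5715, 926, 29, 3460 and 2283 passed in the 5 contrasts, in the order AKI in control mice, AKI in GR-deficient mice, genotype in healthy mice, genotype in AKI, interaction. Array quality weights gave 9648, 3196, 301, 7000 and 4905, and a test against a 1.2-fold change 2870, 153, 7, 1244 and 916. With dim genes left out 1419 passed with AKI in GR-deficient mice and 74 between healthy genotypes. That last count was 61 with cyclic loess, 11 over all probe sets, 71 with a trended robust prior and 14 with only those 2 groups in the fit. Leaving out 1 array gave 277 (without GR-deficient AKI replicate 1) to 1448 (without control AKI replicate 1) for AKI in GR-deficient mice and 10 to 115 between healthy genotypes, and 3 to 10 of the 41 pathway genes with AKI in GR-deficient mice. Quantile normalization moved the split of higher and lower calls from 656 and 270 to 659 and 436 for AKI in GR-deficient mice and from 1473 and 810 to 1377 and 1219 for the interaction.

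Replicate numbers did not pair the samples (correlation of deviations -0.41 to 0.252 over 18 same-number pairs, 3 above 0.1). With the replicate number as a block, 5368, 671, 25, 3104 and 2013 genes passed, and no call among the 6 genes changed. A contrast that averages AKI over both genotypes was added after the values of Plau and Serpinf2 were seen. It restates those values, so nothing is drawn from it. The cause of these shifts was not tested. With 3 arrays per group and no detection call, small differences of dim genes such as Plg cannot be resolved.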
